A study of Danio rerio with 6 samples.

Results

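The genes trpa1b and ntrk2b, which encode receptors of sensory neurons, were followed together with 7 related receptor genes in RNA-seq of mettl16-/- zebrafish embryos and their siblings. The 9 genes were taken by symbol from the 26375 gene identifiers in the count tables, and they are trpa1b, trpa1a and trpv1, ntrk2b, ntrk2a, ntrk3a and ntrk3b, and p2rx3a and p2rx3b. The study lists trpa1b and ntrk2b as potential targets of Mettl16, and both were selected on measured values of this same comparison, namely their mRNA level together with their m6A level, which was not analysed here. Their levels are therefore given as a description, with no test, and the question asked of the data is whether the other 7 receptor genes moved alike. These 7 were named as related receptors, but with earlier results of these data known.

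No name of their own was found in the tables used for ntrk2a, ntrk3b and p2rx3a. These genes were taken as the only other identifiers left under the names NTRK2, NTRK3 and P2RX3, while the other 6 genes were matched by their own symbols.

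Mettl16 is a methyltransferase that writes m6A on RNA. The tested embryos were mettl16-/- at 3 dpf, from a CRISPR/Cas9 line in which a small deletion predicts a truncated protein, and the siblings are labelled mettl16+/+. Fish were of the AB strain, neither group was treated, and both had the same age and tissue, described as the tail in the methods and as the trunk region in the labels, including the caudal hematopoietic tissue (CHT). There were 3 libraries in each group, each a pool of tails from many embryos whose heads were used for genotyping, so the p-values below measure only the spread between these pools.

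Somatosensory neurons of the fish trunk and tail are the Rohon-Beard cells of the dorsal spinal cord and, later, the neurons of the dorsal root ganglia, and both send axons into the skin. Trpa1 channels open to chemical irritants, and in zebrafish trpa1b serves this response in somatosensory neurons. Trpv1 opens to heat, P2rx3 channels open to extracellular ATP, and the Trk receptors bind neurotrophins, Ntrk2 (TrkB) chiefly Bdnf and Ntrk3 (TrkC) chiefly Ntf3, the growth factors that sensory neurons need for survival and branching.

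The study lists qPCR primers under the names trpa1b and ntrk2b, and they are printed here. Whether they match only these genes and not their paralogs was not checked. By the paper's account, its qPCR showed no decrease of trpa1b or ntrk2b mRNA in mettl16-/- embryos. Primer sequences run 5′ to 3′ in lower case.
trpa1b forward primer: cgtatcttttagcgagcaacaat
trpa1b reverse primer: ggcctccacactgcagcacat
ntrk2b forward primer: tggtggctgttaagactttgaaa
ntrk2b reverse primer: ctggaccatgagccctgagaaac
The trpa1b primers are 23 and 21 bases long with a GC content of 39.1% and 61.9%. Both ntrk2b primers have 23 bases, with a GC content of 39.1% and 56.5%.

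Library totals ranged from 16239791 to 18541402 counts, and the targeted gene itself had 64, 59 and 86 counts in mettl16-/- replicates 1, 2 and 3, against 104, 120 and 117 counts in sibling replicates 1, 2 and 3. All mettl16-/- libraries lay below all sibling libraries for mettl16 (log2 fold change -0.63, standard error 0.21). Deviations from the group means were shared by libraries of the same replicate number, so values are also given by replicate number. None of the 9 receptor genes shares a chromosome with mettl16 in the GRCz12tu annotation. Every one of the 9 passed the filter on low counts. For ntrk2b this rested on the sibling libraries, where it is high, with 13, 14 and 13 counts. Its mettl16-/- libraries, with 6, 4 and 3 counts, would not have passed alone.

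Among the irritant and heat channels, trpa1b (ENSDARG00000031875) was lower in mettl16-/- embryos by its selection. It had 19, 16 and 19 counts in mettl16-/- replicates 1, 2 and 3, against 22, 41 and 46 counts in sibling replicates 1, 2 and 3. Scaled for library size by edgeR's TMM method and written as CPM, the count relative to the scaled library total, these were 1.19, 0.891 and 1.14 CPM in mettl16-/- embryos, against 1.3, 2.11 and 2.76 CPM in siblings. The groups did not overlap, but the sibling library of replicate 1 lay close to the mettl16-/- libraries and apart from the other siblings. By replicate number, the ratio of mettl16-/- to sibling was 0.917 for replicate 1, against 0.423 and 0.413 for replicates 2 and 3. Mean levels were 1.07 ± 0.159 CPM in mettl16-/- embryos and 2.05 ± 0.731 CPM in siblings (SD, n = 3 each). This is a log2 fold change of -0.94, with 0.37 as its standard error. Leaving out each library in turn gave values between -1.18, without sibling replicate 1, and -0.67, without sibling replicate 3.

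**Figure D1:**
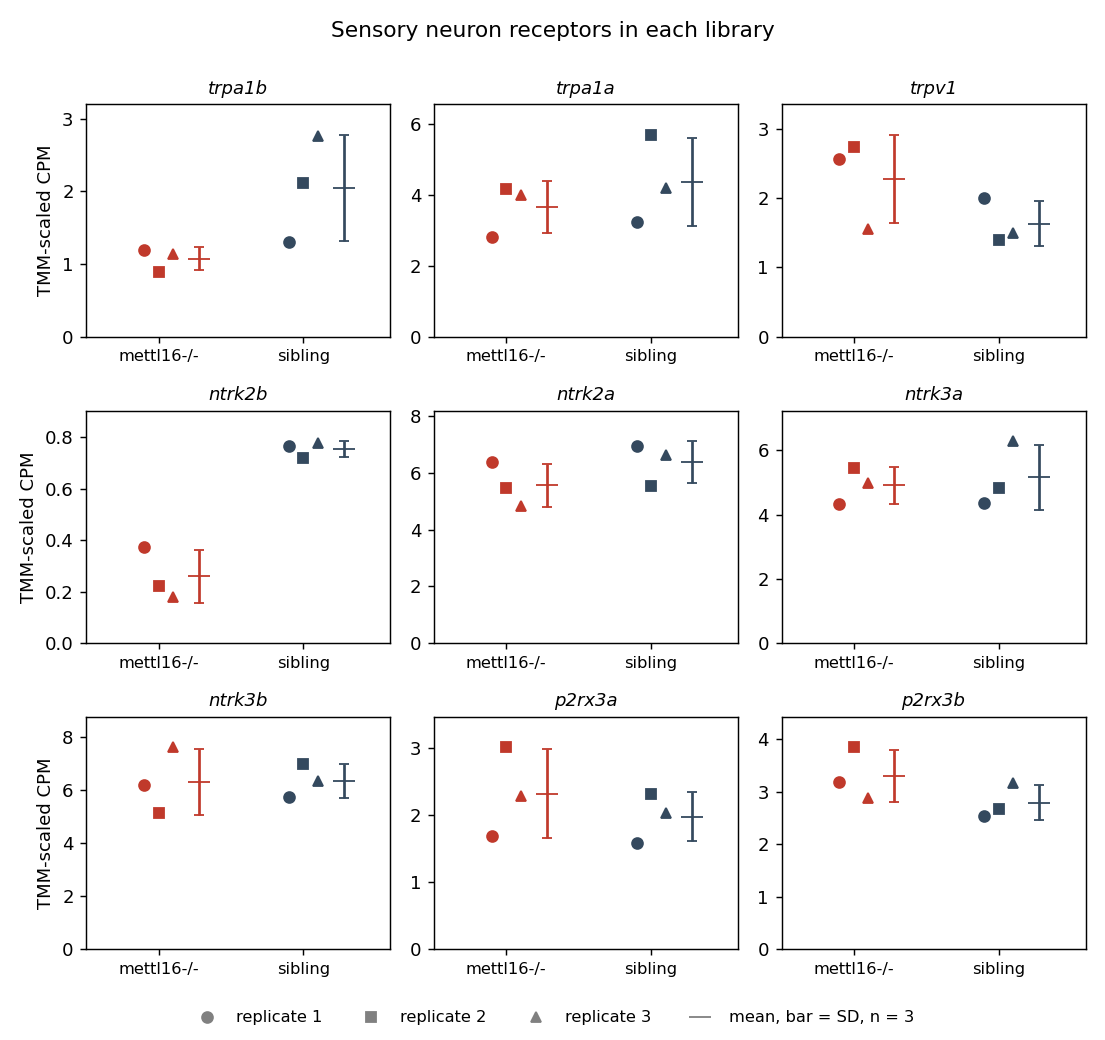
TMM-scaled CPM (vertical axes, each starting at 0) of the 9 receptor genes in each library, with the 3 mettl16-/- libraries in red on the left and the 3 sibling libraries in dark blue on the right of each panel; markers give the replicate number and bars the SD around the mean. In trpa1b and ntrk2b, the genes chosen on this comparison, the groups are apart, with 0.375 CPM at most in mettl16-/- embryos and 0.720 CPM at least in siblings for ntrk2b, while in the other 7 panels the groups overlap.

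Its paralog trpa1a (ENSDARG00000016699), also an irritant channel gene, had 45, 75 and 67 counts in mettl16-/- replicates 1, 2 and 3, against 55, 111 and 70 counts in sibling replicates 1, 2 and 3. The level was 3.67 ± 0.742 CPM in mettl16-/- embryos and 4.38 ± 1.24 CPM in siblings (SD, n = 3 each), and the groups overlapped. The log2 fold change of trpa1a was -0.26 (95% interval -0.85 to 0.34). Each mettl16-/- library was below its sibling of the same number, at ratios of 0.869, 0.732 and 0.957.

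For trpv1 (ENSDARG00000059883), the heat channel gene, there were 41, 49 and 26 counts in mettl16-/- replicates 1, 2 and 3, against 34, 27 and 25 counts in sibling replicates 1, 2 and 3. The point estimate lay on the other side, at 2.28 ± 0.634 CPM in mettl16-/- embryos and 1.63 ± 0.328 CPM in siblings (SD, n = 3 each). Each mettl16-/- library was above its sibling of the same number, at ratios of 1.28, 1.96 and 1.04 for replicates 1, 2 and 3. Its log2 fold change of 0.49 (95% interval -0.25 to 1.23) was the largest among the 7 genes other than trpa1b and ntrk2b, and its groups overlapped.

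Counts of a paralog pair can be set against each other within a library, which takes out library size. These counts are not per length, so a share below is not the share of transcripts. The gene trpa1b held 29.7%, 17.6% and 22.1% of the counts of the trpa1b and trpa1a pair in mettl16-/- replicates 1, 2 and 3, against 28.6%, 27.0% and 39.7% in sibling replicates 1, 2 and 3. In replicate 1 the share was thus nearly equal in both groups, and the groups overlapped. The 95% Wilson intervals, which cover counting error only, were 14.6% to 31.9% in mettl16-/- replicate 3 and 31.2% to 48.8% in sibling replicate 3, so that even in this replicate they met.

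Among the neurotrophin receptors, ntrk2b (ENSDARG00000098511), which encodes a TrkB receptor, was also lower in mettl16-/- embryos by its selection. It had 6, 4 and 3 counts in mettl16-/- replicates 1, 2 and 3, against 13, 14 and 13 counts in sibling replicates 1, 2 and 3. All 3 replicate numbers showed the direction, at ratios of mettl16-/- to sibling of 0.490, 0.309 and 0.231. The level was 0.259 ± 0.103 CPM in mettl16-/- embryos and 0.755 ± 0.0310 CPM in siblings (SD, n = 3 each). This is a log2 fold change of -1.52, with 0.50 as its standard error. Summed over the libraries of a group, 13 reads stood in mettl16-/- embryos (exact 95% Poisson interval 6.92 to 22.2) against 40 reads in siblings (28.6 to 54.5), and these intervals cover counting error only. Over the 6 fits that each lack 1 library, ntrk2b ranged between -1.87, without mettl16-/- replicate 1, and -1.33, without mettl16-/- replicate 3, on the log2 scale.

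The other TrkB gene, ntrk2a (ENSDARG00000059897), had 102, 98 and 81 counts in mettl16-/- replicates 1, 2 and 3, against 118, 108 and 111 counts in sibling replicates 1, 2 and 3. This was 5.56 ± 0.771 CPM in mettl16-/- embryos and 6.39 ± 0.737 CPM in siblings (SD, n = 3 each). The mettl16-/- library was the lower one of each replicate number, yet the groups overlapped and the log2 fold change was -0.20 (95% interval -0.62 to 0.22). As a share of the ntrk2b and ntrk2a counts, ntrk2b took 5.56%, 3.92% and 3.57% in mettl16-/- replicates 1, 2 and 3, against 9.92%, 11.5% and 10.5% in sibling replicates 1, 2 and 3. The groups do not overlap in this share, which rests on the counts that chose ntrk2b, and the Wilson interval of every mettl16-/- library overlaps that of every sibling library.

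**Figure D2:**
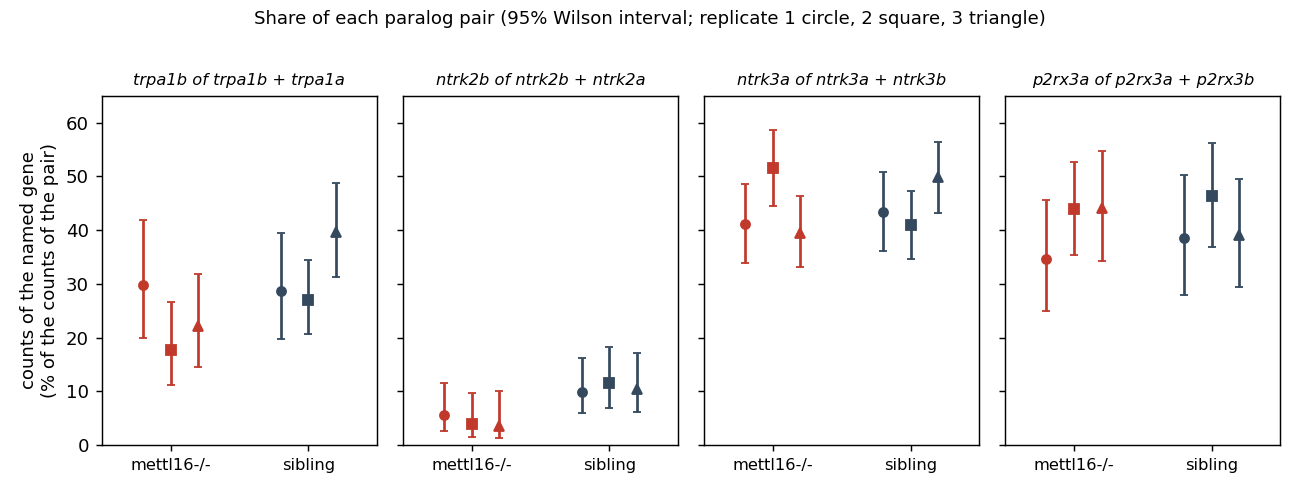
Counts of the named gene as a percent of the counts of its paralog pair (vertical axis) in each library, with the mettl16-/- libraries in red on the left and the siblings in dark blue on the right of each panel; bars are 95% Wilson intervals. The share of ntrk2b was at most 5.56% in mettl16-/- libraries and at least 9.92% in sibling libraries, whereas the trpa1b share in replicate 1 was 29.7% in mettl16-/- embryos and 28.6% in siblings.

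In both TrkC genes the groups overlapped. The gene ntrk3a (ENSDARG00000077228) had 69, 98 and 83 counts in mettl16-/- replicates 1, 2 and 3, against 74, 94 and 105 counts in sibling replicates 1, 2 and 3, with a log2 fold change of -0.068 (95% interval -0.54 to 0.40). For ntrk3b (ENSDARG00000086214) there were 99, 92 and 127 counts in mettl16-/- replicates 1, 2 and 3, against 97, 136 and 106 counts in sibling replicates 1, 2 and 3. Its log2 fold change was -0.013 (95% interval -0.45 to 0.42). In both genes the sign depended on which library was left out. The ntrk3a share of the pair lay between 39.5% and 51.6% in mettl16-/- libraries and between 40.9% and 49.8% in sibling libraries, with no separation.

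The ATP-gated channel genes overlapped as well. The gene p2rx3a (ENSDARG00000010477) had 27, 54 and 38 counts in mettl16-/- replicates 1, 2 and 3, against 27, 45 and 34 counts in sibling replicates 1, 2 and 3, and its log2 fold change was 0.23 (95% interval -0.48 to 0.94). In p2rx3b (ENSDARG00000029718) there were 51, 69 and 48 counts in mettl16-/- replicates 1, 2 and 3, against 43, 52 and 53 counts in sibling replicates 1, 2 and 3. Its log2 fold change was 0.24 (95% interval -0.30 to 0.78). For p2rx3a each mettl16-/- library was above its sibling of the same number, at ratios of 1.06, 1.3 and 1.12 for replicates 1, 2 and 3. For p2rx3b these ratios were 1.26, 1.44 and 0.905. Both genes had their highest mettl16-/- library in replicate 2, and their share of the pair did not separate the groups.

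None of the 7 receptor genes other than trpa1b and ntrk2b passed an adjusted p of 0.05 in the quasi-likelihood test of edgeR, with Benjamini-Hochberg adjusted values over the 18487 genes tested, where 0.124% of all genes passed. All 7 had an adjusted p of 1.0 from edgeR, and their smallest unadjusted p was 0.173, that of trpv1. At an unadjusted p under 0.05 the count was 0 of 7 in edgeR, beside 2.17% of all genes in edgeR. It was also 0 of 7 in DESeq2 with no filter, for which the share of all genes is not given here. When replicate numbers entered as a block, which raised the share of all genes passing to 1.04%, the count stayed at 0 of 7 and the smallest adjusted p in edgeR was 0.697.

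The groups did not overlap, with mettl16-/- lower, in 2 of the 9 genes, which are the chosen trpa1b and ntrk2b, and in 0 of the other 7, beside 3.43% of all genes tested. The opposite separation was seen in 0 of the 9 genes and in 3.46% of all genes. Of the 7, 3 had a fold change above 0 and 4 below 0, with a median log2 fold change of -0.013 beside -0.0032 over all genes tested. A p that misses the threshold does not show that a gene was unchanged. The intervals of trpa1a and ntrk2a included a 1.5-fold fall and those of trpv1, p2rx3a and p2rx3b a 1.5-fold rise, while those of ntrk3a and ntrk3b included neither. Summed over the 7 genes, the level was 27.2, 29.8 and 28.1 CPM in mettl16-/- replicates 1, 2 and 3, against 26.4, 29.5 and 30.2 CPM in sibling replicates 1, 2 and 3.

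**Figure D3:**
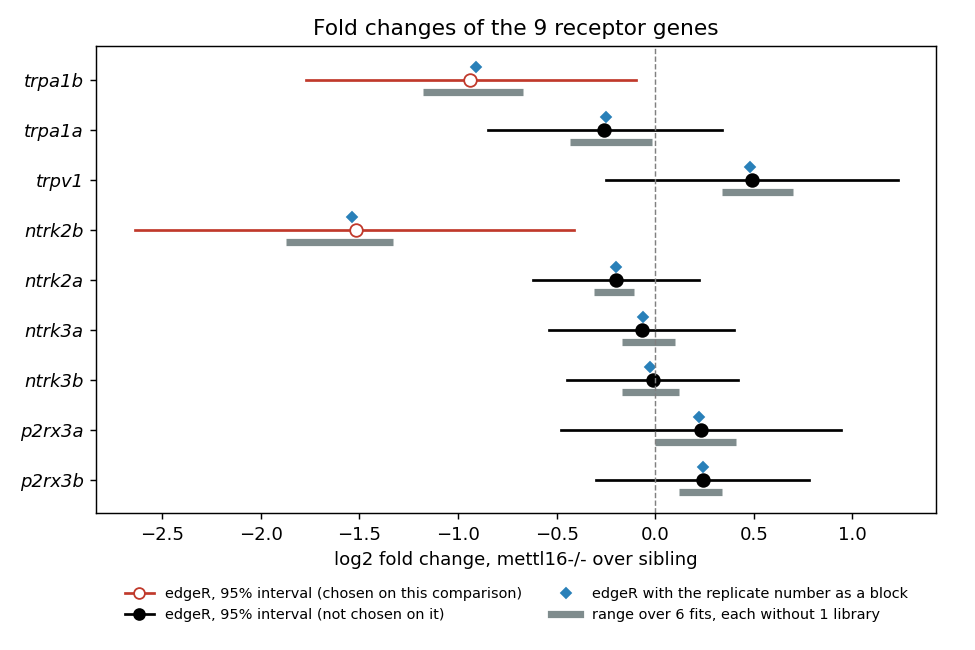
Log2 fold change of mettl16-/- over sibling (horizontal axis) for the 9 receptor genes, as the edgeR estimate with its 95% interval (circle and line; open and red where the gene was chosen on this comparison), the estimate of the fit blocked by replicate number (blue diamond) and the range of 6 fits that each leave out 1 library (grey bar). The intervals of the 7 genes other than trpa1b and ntrk2b all include 0, with estimates between -0.26 for trpa1a and 0.49 for trpv1, and the estimates of trpa1b and ntrk2b lie at -0.94 and -1.52.

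The cut-off in the study's methods is an unadjusted p of at most 0.05 and a change of at least 1.5-fold in DESeq2. In DESeq2 without a filter, run here on the deposited counts, 0.922% of all genes with a count met it, among them trpa1b and ntrk2b. This run repeats the cut-off of their selection on the same libraries, so no p-value is printed for trpa1b and ntrk2b. Nearest outside, by both fold and p, was trpv1, with a log2 fold change of 0.49 and an unadjusted p of 0.24 in DESeq2. Nothing can be read from this for the chosen genes. With 1 library left out, both genes met the cut-off in none of the 6 fits, and the count of the 9 was 0 without sibling replicates 2 or 3 or mettl16-/- replicates 2 or 3, and 1 without replicate 1 of either group. Those fits have fewer libraries, and both genes were chosen by this cut-off on all 6 libraries. The share of all genes that met it in those fits is not given here. These counts therefore do not show how firm the selection was.

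The pattern of trpa1b across the 6 libraries was most like that of cblc, CALML4 and raver1, with Pearson correlations of log2 CPM of 0.990, 0.988 and 0.987, and 106 of 18300 genes reached 0.9. The 6 libraries share the genotype difference and the replicate numbers, so the likeness is a description. For ntrk2b the nearest genes were ENSDARG00000115174, WDR45B and fer1l4, at 0.989, 0.985 and 0.983, and 80 of 18301 genes reached 0.9. Between trpa1b and ntrk2b themselves, which were chosen on the same libraries, the correlation was 0.772. Against trpa1b it was 0.458 for trpa1a, 0.359 for ntrk2a, 0.466 for ntrk3a and 0.374 for ntrk3b, and below 0 for trpv1 (-0.753), p2rx3a (-0.206) and p2rx3b (-0.339). Against ntrk2b it was 0.749 for ntrk2a, 0.152 for trpa1a, 0.0315 for ntrk3a and -0.0361 for ntrk3b, and lower for trpv1 (-0.422), p2rx3a (-0.523) and p2rx3b (-0.537).

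Around these receptors, 13 lists held the other channels of each family, the neurotrophin pathway and markers of cell types that the tissue could contain. Of the 187 list genes tested, 0 passed an adjusted p of 0.05 in edgeR, beside 0.124% of all genes tested. In DESeq2 with no filter, 0 of the 187 passed as well, where 61 genes passed over the whole series. An unadjusted p under 0.05 in edgeR was reached by 2 of the 187, beside 2.17% of all genes tested. Those 2 were trpm4a and p2rx4a, both with lower point estimates in mettl16-/- embryos.

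Of 20 other TRP channel genes tested, 11 had a fold change above 0 and 9 below 0, with a median log2 fold change of 0.0032. The largest counts belonged to trpm4a (ENSDARG00000059993) and trpm7, which encode cation channels of the TRPM group. There were 629, 705 and 613 counts of trpm4a in mettl16-/- replicates 1, 2 and 3, against 825, 912 and 802 counts in sibling replicates 1, 2 and 3. The groups did not overlap, and the log2 fold change of trpm4a was -0.32 (standard error 0.091, adjusted p = 1.0 in edgeR with Benjamini-Hochberg adjustment). When replicate numbers entered as a block, edgeR gave trpm4a an adjusted p of 0.0126. The groups of trpm7 overlapped, at 0.020 on the log2 scale (standard error 0.10).

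A further pair of TRP genes had no overlap between the groups, both with mettl16-/- lower. These were mcoln3b, a lysosomal channel gene, at -0.27 (standard error 0.13), and trpc5b at -0.65 (standard error 0.45) with 13, 16 and 6 counts in mettl16-/- replicates 1, 2 and 3, against 17, 26 and 15 counts in sibling replicates 1, 2 and 3. On its mettl16-/- libraries alone, trpc5b would not have passed the filter. The count of 3 of 20 below stands beside 3.43% of all genes tested, and it was 0 of 20 above. The TRP genes left out by the filter numbered 10, of which 1 had no count in any library.

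In the P2X family, p2rx4a (ENSDARG00000044752), an ATP-gated channel gene, had 24, 28 and 25 counts in mettl16-/- replicates 1, 2 and 3, against 54, 60 and 49 counts in sibling replicates 1, 2 and 3. Its level was 1.52 ± 0.0344 CPM in mettl16-/- embryos and 3.07 ± 0.125 CPM in siblings (SD, n = 3 each), so that the fold change was -1.01 on the log2 scale (standard error 0.26). It did not pass the adjustment over all genes, with an adjusted p of 0.781 in edgeR and of 0.0663 in edgeR with the replicate block. The study lists p2rx4a among the genes changed in these same libraries, so its values are no independent evidence. In the other P2X genes with the most counts the groups overlapped, with p2rx1 at -0.36 (standard error 0.26) and p2rx5 at 0.29 (standard error 0.19). Of 6 other P2X genes tested, 3 lay above 0 and 3 below 0.

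The ligands of the Trk receptors were measured in the same libraries. Bdnf, the ligand of TrkB, is encoded by bdnf, which had 55, 62 and 83 counts in mettl16-/- replicates 1, 2 and 3, against 58, 92 and 58 counts in sibling replicates 1, 2 and 3, and a log2 fold change of 0.026 (standard error 0.25). The ligand gene of TrkC, ntf3, stayed below the filter, with 2, 0 and 0 counts in mettl16-/- replicates 1, 2 and 3, against 3, 2 and 0 counts in sibling replicates 1, 2 and 3. For the nerve growth factor genes, the log2 fold change was 0.075 (standard error 0.24) in ngfa and 0.14 (standard error 0.21) in ngfb.

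The p75 receptor genes, whose product binds all neurotrophins, had log2 fold changes of 0.13 (standard error 0.14) in ngfra and 0.010 (standard error 0.23) in ngfrb, which was taken as the only other identifier under NGFR. Both SORT1 identifiers, for the co-receptor sortilin, lay near 0, at -0.074 (standard error 0.22) and 0.0084 (standard error 0.12). All 8 tested genes of this list overlapped between the groups, and 7 of 8 had a fold change above 0, with a median of 0.051. Downstream, 16 adaptor and relay genes were tested, and 11 lay above 0 and 5 below 0, with a median of 0.027. The relay genes with the most counts were shc1, an adaptor of activated Trk receptors, at 0.12 (standard error 0.095), and 1 of 2 KIDINS220 identifiers (ENSDARG00000017338), a Trk scaffold, at 0.031 (standard error 0.11).

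Other receptors and channels of somatosensory neurons gave 18 tested genes, 10 above 0 and 8 below 0, with a median log2 fold change of 0.011 and no gene without overlap. The list holds acid-sensing, mechanosensitive and sodium channels, opioid receptors and the receptors of the GDNF family. Of its 33 symbols, 27 were matched to an identifier, and 9 of these were left out by the filter. The piezo2 genes were not matched, so piezo1 was the only piezo channel gene tested. The most counted genes of the list were ret, the signalling receptor of the GDNF family, at -0.054 (standard error 0.11), and a SCN8A identifier (ENSDARG00000005775), a neuronal sodium channel, at -0.12 (standard error 0.18).

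**Figure D4:**
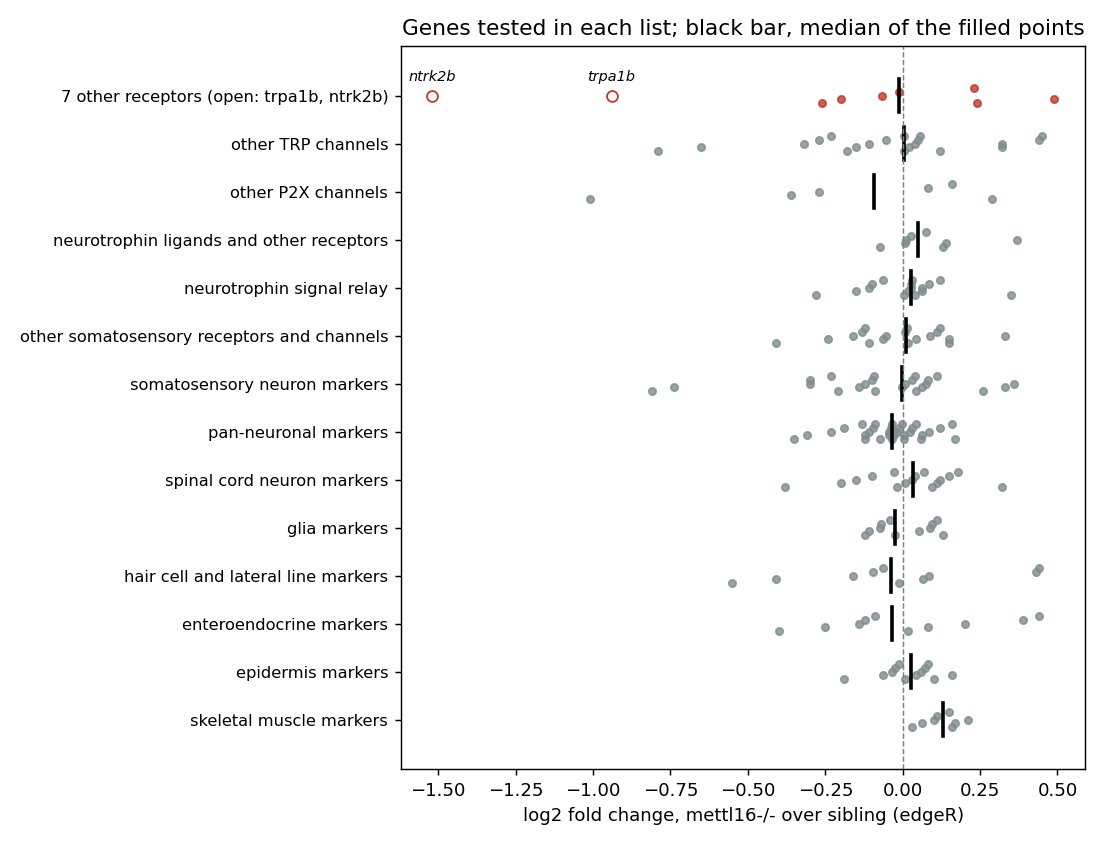
Log2 fold change of mettl16-/- over sibling (horizontal axis) of each gene tested, by list (rows); black bars are medians of the filled points, and trpa1b and ntrk2b are open circles outside the median. Points of every list lie on both sides of 0 except the 8 skeletal muscle genes, which all lie above 0 with a median of 0.13, and p2rx4a is the leftmost point of the other P2X channels at -1.01.

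Marker genes of somatosensory neurons were read in the labelled tissue. The list is not specific to these neurons, since the paper uses runx1, which is on it, as a marker of blood stem and progenitor cells. Its levels therefore do not show how many of these neurons the tissue holds. Of 25 such marker genes matched, 23 passed the filter and none was at 0 in all libraries, among them isl1, prdm12b and drgx, which specify these neurons. Their summed level was 260 to 267 CPM in mettl16-/- libraries and 252 to 278 CPM in sibling libraries. The largest parts of this sum were eya1 and isl1, with means of 48.6 and 30.4 CPM in mettl16-/- embryos, against 47.4 and 28.2 CPM in siblings. Of the 23, 11 lay above 0 and 12 below 0, with a median log2 fold change of -0.0020, and 2 of 23 had no overlap, with mettl16-/- lower, beside 3.43% of all genes tested. Those were pou4f1 at -0.23 (standard error 0.18) and tlx1 at -0.81 (standard error 0.50), transcription factor genes of sensory neurons, tlx1 with 10, 4 and 8 counts in mettl16-/- replicates 1, 2 and 3, against 11, 14 and 16 counts in sibling replicates 1, 2 and 3. By its mettl16-/- libraries alone, tlx1 would not have passed the filter. The most counted, eya1 and isl1, stood at 0.039 (standard error 0.099) and 0.11 (standard error 0.11). In bulk tissue, fewer cells of a type and less RNA per cell cannot be told apart.

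No marker gene of another cell type passed an adjusted p of 0.05 in edgeR without the block, beside 0.124% of all genes tested. With the replicate block 2 did, both of skeletal muscle, beside 1.04% of all genes tested. Summed over 32 pan-neuronal genes matched, the level was 2170 to 2354 CPM in mettl16-/- libraries and 2196 to 2312 CPM in sibling libraries, and the median log2 fold change of the 31 tested was -0.033. For 16 tested genes of spinal cord neurons the median was 0.035. The list had 1 gene of 16 higher without overlap, beside 3.46% of all genes tested, a SLC18A3 identifier (ENSDARG00000006356) for the vesicular acetylcholine transporter, at 0.15 (standard error 0.092). Glia markers, led by gfap at 0.11 (standard error 0.12) and cx43 at 0.088 (standard error 0.15), had a median of -0.026 over 11 genes.

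Hair cells and enteroendocrine cells of the gut are considered because fish trpa1 and neurotrophin receptor genes are also known from cells outside the somatosensory ganglia. Over 10 tested genes of hair cells and the lateral line the median was -0.038, and the summed level was 219 to 232 CPM in mettl16-/- libraries and 226 to 279 CPM in sibling libraries. Lower without overlap were 2 of 10, beside 3.43% of all genes tested, and both had few counts, the ATOH1 identifier (ENSDARG00000055294), for a hair cell transcription factor, at -0.41 (standard error 0.27) and slc17a8, the glutamate transporter gene of hair cells, at -0.55 (standard error 0.40). The most counted, pvalb9 and cldnb, overlapped at -0.16 (standard error 0.18) and -0.065 (standard error 0.11). Over 10 enteroendocrine genes the median was -0.036, and neurod1, a transcription factor gene also used by neurons, was the 1 of 10 lower without overlap, beside the same 3.43%, at -0.14 (standard error 0.098), with gcga at 0.017 (standard error 0.20).

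Epidermis, which the sensory axons innervate, had a median of 0.025 over 12 genes, with krt4 at 0.081 (standard error 0.099) and cyt1 at 0.10 (standard error 0.13). In skeletal muscle, 8 of 8 genes lay above 0 with a median of 0.13, where 7 of 8 did in the list of neurotrophin ligands and other receptors. Only 8 of 13 muscle symbols were matched, and genes of 1 tissue read in the same libraries are no independent observations. The summed level of the muscle genes was 112756 to 128376 CPM in mettl16-/- libraries and 95357 to 125703 CPM in sibling libraries, which overlap. Among them, actc1b stood at 0.17 (standard error 0.13) and myhz1.2 at 0.16 (standard error 0.10). By replicate number, the muscle sum of the mettl16-/- library was above that of its sibling in all 3 pairs, at 128376 against 125703 CPM, 112756 against 95357 CPM and 127721 against 112341 CPM for replicates 1, 2 and 3. In edgeR with the replicate block, actc1b passed at an adjusted p of 0.0423 and an ACTA1 identifier (ENSDARG00000055618), for skeletal muscle actin, at 0.0050. Whether the muscle share of the tissue has a part in the levels of trpa1b and ntrk2b was not tested.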

How the data were processed

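Zebrafish embryos at 3 dpf were compared, 3 mettl16-/- and 3 sibling libraries, grouped by the labels. The authors deposited whole-number counts per gene, not normalized, and the submitters' processing notes name CASAVA 1.8, fastp 0.18.0, HISAT2, StringTie 1.3.1 and GRCz11. The counting tool, its use of strand and its treatment of reads shared by paralogs are not given in the sources used here, so counts of paralogs are uncertain. The members and lists were chosen with earlier results of these data known.

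Gene names came from the study's supplementary tables (names only) and a table of gene names, and 23667 of 26375 identifiers had a symbol. Differences between genotypes were tested on the counts with edgeR 4.0.16 under R 4.3.3, using TMM scaling, filterByExpr and a robust quasi-likelihood fit, and p-values were adjusted after Benjamini-Hochberg over all genes tested. The test was also run on simulated counts, in which libraries shared no replicate effect. Alternatives were DESeq2 1.42.0, its size factors in edgeR, no filter, only genes averaging 10 counts or more, a fit that is not robust, the replicate block and each library left out in turn. Totals of 16239791 to 18541402 counts limit the precision for genes with few reads.

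Libraries of the 2 groups share replicate numbers. Deviations from the group means correlated at 0.312 to 0.586 between libraries of the same number and at -0.446 to -0.0362 between the others. Deviations within a group cancel out for each gene, so the negative values follow in part from the positive ones. Libraries of 1 number were treated as pairs in the blocked fit, from the labels and this check.

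Named genes are the 9 receptors, mettl16, all neurotrophin ligands and other neurotrophin receptors, the 3 genes most correlated with trpa1b and with ntrk2b (log2 CPM with a prior count of 2, a mean of at least 10 counts) and, of each list, the genes that passed, the 2 with the highest mean CPM and up to 3 without overlap with the smallest p. The qPCR and m6A measurements of the study were not analysed here. Results of 2 genes that this rule names are not reported here.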

Additional observations from a re-analysis of the deposited data

How the results depend on the processing

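None of the 7 receptor genes other than trpa1b and ntrk2b passed an adjusted p of 0.05 in edgeR or DESeq2 under any alternative run, and trpa1b and ntrk2b kept a negative fold change in each. With 1 library left out, the log2 fold change ranged between -0.17 and 0.098 for ntrk3a and between -0.17 and 0.12 for ntrk3b. The sign was reversed for ntrk3a at 0.098 without sibling replicate 3 and at 0.017 without mettl16-/- replicate 1, and for ntrk3b at 0.065 without sibling replicate 2, at 0.00021 without mettl16-/- replicate 1 and at 0.12 without mettl16-/- replicate 2. Of the 9 genes, 2 met the cut-off of the study, and 0 to 1 with 1 library left out, which leaves fewer samples. The 2 genes were chosen by this cut-off on all libraries, so this fall is no measure of their strength. Over all genes, 23 passed an adjusted p of 0.05 in edgeR, 60 in DESeq2 on the same genes, 61 in DESeq2 with no filter, 193 with the replicate block and 3 to 21 with 1 library left out. With the replicate block, 3 of 187 list genes passed, trpm4a, actc1b and an ACTA1 identifier, beside 1.04% of all genes tested. Without it 0 passed, and the block changed no call among the 7 receptor genes. The cause of these differences was not tested. A mean of at least 10 counts left out ntrk2b, so no value of it exists there. Depth limits ntrk2b most, with 3 to 14 counts in a library.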
